A study of Rattus norvegicus with 16 samples.

Results

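Axon guidance ligands and receptors were followed in rat bone marrow mesenchymal stromal cells (MSCs) cultured for 24 h in 4 media. The family was taken by gene name: every listed gene whose symbol begins with Sema, Slit, Robo or Ntn followed by a digit, or with Plxn, Epha, Ephb, Efna, Efnb or Unc5, together with Nrp1, Nrp2, Rtn4r, Rtn4rl1 and Rtn4rl2. This gave 71 of the 26689 gene rows, under 70 symbols. They hold 7 class 3 semaphorins, 13 other semaphorins, 8 plexins, 2 neuropilins, 4 netrins, 4 Unc5 receptors, 3 slits, 5 rows for roundabouts, 7 ephrins, 13 Eph receptors and 3 Nogo receptors. Unc50 and Unc5cl were caught by their letters only and are not netrin receptors. The names of 3 rows (Plxna3, Unc5a and a second row for Robo1) came from the KEGG annotation of the table. Enough reads for a test (10 or more counts in 4 or more libraries) were present for 60 of the 71 rows.

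The MSCs came from the bone marrow of 4 wild-type adult female Sprague-Dawley rats (rats 2, 3, 4 and 8), sorted as CD29+ and CD45- cells, and each rat gave 1 library per medium, 16 in all. M1CM was medium conditioned by inflammatory primary macrophages, polarized with lipopolysaccharide (LPS) and interferon gamma (IFNg). Pol1 was the polarizing medium itself with no macrophages, D10 with 100 ng/ml LPS and 20 ng/ml IFNg as the labels have it. M0CM was medium conditioned by unpolarized macrophages, and D10 was the growth medium of the MSCs, DMEM with serum and gentamicin. The study's methods make the polarizing medium from an RPMI base with M-CSF and another IFNg dose, so what Pol1 held besides LPS and IFNg is not settled, and comparisons of the conditioned media with D10 also compare base media. By the same methods, M1CM came from cultures given LPS, IFNg and M-CSF, and M0CM from cultures refreshed without them. What M1CM still held of these is not given, so they cannot be told apart from macrophage products in M1CM against D10 or M0CM. In M1CM against Pol1, the base medium, M-CSF and the amounts of LPS and IFNg may also differ. There too, they cannot be told apart from macrophage products.

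Axon guidance cues are secreted or membrane-bound proteins that attract or repel growing axons, and the same ligands and receptors steer migrating cells and vessel sprouts elsewhere in the body. Netrins act through Dcc, neogenin and Unc5 receptors, slits through roundabouts, semaphorins through plexins with neuropilins as co-receptors for most of class 3, and ephrins through Eph receptor kinases on the neighbouring cell. Nogo receptors bind myelin proteins and matrix proteoglycans that limit axon regrowth, and MSCs are studied as a source of factors that act on injured nerve.

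Each library held between 23291125 and 31992709 counts. The MSC genes Thy1 and Pdgfrb were at 1200 ± 202 and 882 ± 188 CPM (counts scaled to the library size) in M1CM and at 1310 ± 281 and 1420 ± 448 CPM in D10 (SD, n = 4 each here and below). The 10 leukocyte and macrophage markers measured summed to 15.7 to 40.3 CPM in M1CM libraries, 7 to 11.6 in Pol1, 15.3 to 20.3 in M0CM and 3.87 to 7.78 in D10. Ptprc, Adgre1 and Tyrobp had 0 counts in every Pol1 and D10 library. Tyrobp and Mrc1 had 0 counts in M1CM, and no marker of the 10 had 0 counts in M0CM. Of the 7 leukocyte markers tested in M1CM against D10, 4 were higher and 1 lower, with a median log2 fold change of 1.85. That is 57.1% and 14.3%, against 23.3% and 21.1% of all tested genes. The 6 endothelial markers stayed between 1.64 and 6.72 CPM summed in M1CM and between 2.38 and 9.95 in D10. The 9 Schwann cell and neural markers summed to 220 to 383 CPM in M1CM, 209 to 405 in Pol1, 28.7 to 48.6 in M0CM and 44.7 to 65.9 in D10, mostly from Tubb3 (304 ± 70.6 CPM in M1CM and 36.5 ± 12.1 CPM in D10). Of the 4 of them tested in M1CM against D10, 1 was higher and 2 lower (25% and 50%, median log2 fold change -0.53). The 9 MSC markers summed to 34400 to 74600 CPM in M1CM and 67400 to 101000 in D10, with overlapping ranges. Of the 9 MSC markers tested in M1CM against D10, 2 were higher and 2 lower (22.2% each, median log2 fold change -0.04). The part of other cells, or of the lower MSC marker sum, in the results below was not tested. In bulk RNA, fewer cells of a type and less RNA per cell cannot be told apart.

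M1CM changed the family on both sides: Ntn1, Nrp2, Epha2, Plxnd1, Sema4a and Sema4b rose, while Rtn4rl1, Ephb3, Unc5b, Robo2 and most class 3 semaphorins fell. Against D10, 11 of the 60 tested rows were higher and 20 lower (edgeR quasi-likelihood test, Benjamini-Hochberg adjusted p below 0.05 over 13556 genes). Higher calls made up 18.3% of the tested members, against 23.3% of all tested genes, and lower calls made up 33.3% of them, against 21.1% of all. The median log2 fold change was -0.14 over the members and -0.01 over all genes, and the median absolute log2 fold change was 0.99 and 0.45. At least a 2-fold change was seen in 9 of the higher and 15 of the lower calls. Whether these shares differ from the background was not tested. Below, 4 values in a row are CPM in rats 2, 3, 4 and 8. Where libraries of 2 media are said not to overlap, the share of all genes for which this held was not counted.

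**Figure D1:**
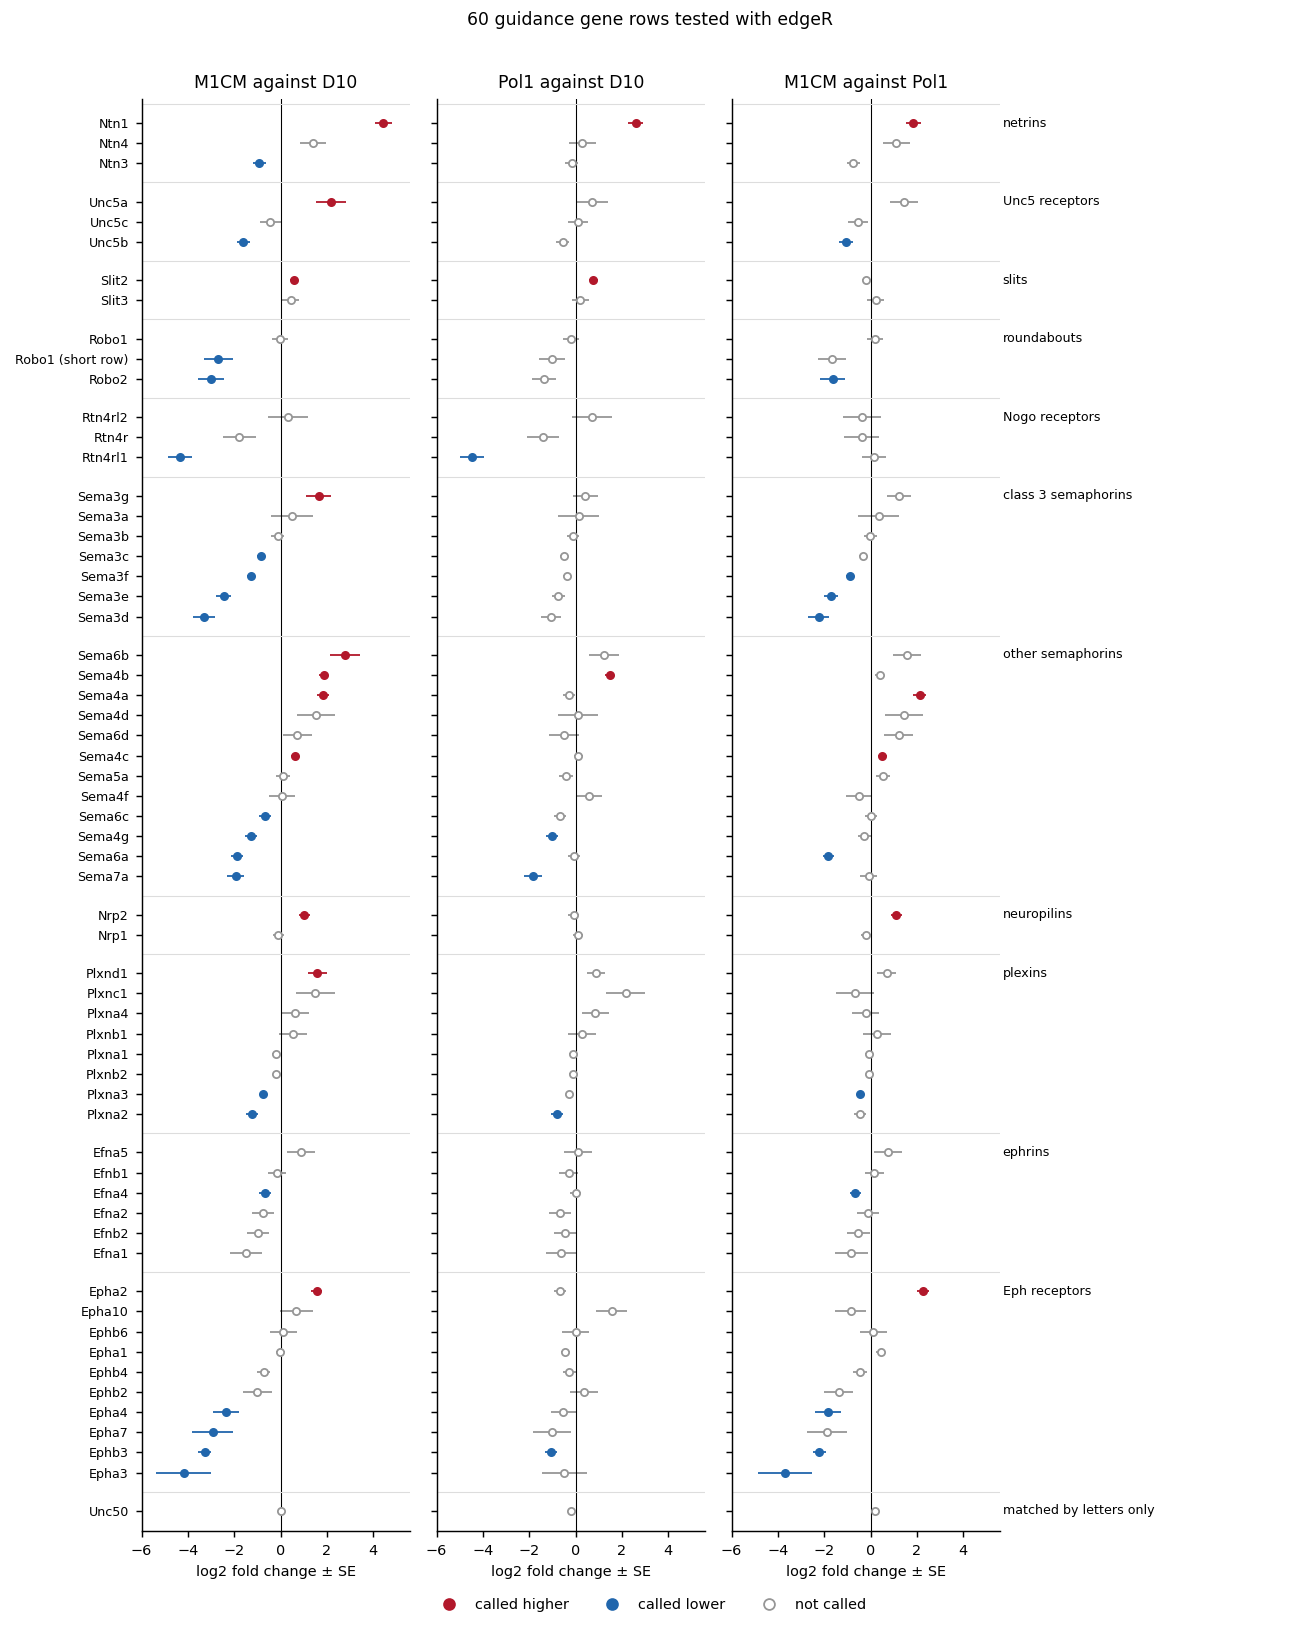
Log2 fold change with its standard error for the 60 tested guidance gene rows, grouped by role, in M1CM against D10 (left), Pol1 against D10 (middle) and M1CM against Pol1 (right); red and blue points passed an edgeR adjusted p of 0.05, open grey points did not. Ntn1 is the highest point of the left panel at 4.44 and Rtn4rl1 the lowest at -4.34.

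Ntn1, which encodes netrin 1, a secreted laminin-related cue, had the largest rise of the family. It stood at 258, 382, 324 and 239 CPM in M1CM, at 64.8, 91.7, 64.0 and 113 CPM in Pol1, at 19.2, 13.7, 12.9 and 29.4 CPM in M0CM and at 11.7, 13.9, 8.55 and 21.2 CPM in D10. The M1CM libraries were all above the Pol1 libraries, and these were all above M0CM and D10. The log2 fold change of M1CM against D10 was 4.44 (SE 0.35, edgeR adjusted p = 1.11e-07). By FPKM, which scales by gene length so that genes can be compared, Ntn1 was the 3rd of the family in M1CM at 165 ± 38.9 and the 23rd in D10 at 7.51 ± 3.07. Ntn4, a netrin of basement membranes, was at 43.4, 90.3, 107 and 161 CPM in M1CM and at 20.6, 22.3, 54.8 and 53.9 CPM in D10, and was higher in M1CM within every rat but not called (log2 fold change 1.4, SE 0.58, edgeR adjusted p = 0.0648). Ntn3 moved the other way, at 1.47, 1.41, 3.33 and 2.14 CPM in M1CM against 4.35, 4.39, 3.41 and 3.59 CPM in D10. All its M1CM libraries were below its D10 libraries, and it fell by 0.91 on the log2 scale (edgeR adjusted p = 0.0131). That call was lost without rat 2, 3 or 8 (edgeR adjusted p = 0.0743, 0.105 and 0.0526).

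The netrin receptors fell or stayed low. Unc5b, a repulsive netrin receptor that also acts in vessel sprouting, was the member with the highest FPKM in D10. Its CPM were 211, 114, 159 and 168 in M1CM and 511, 363, 515 and 604 in D10, with every M1CM library below every D10 library. It fell by 1.61 on the log2 scale (SE 0.29, edgeR adjusted p = 0.000379), and its FPKM was 56.9 ± 12.2 in M1CM and 173 ± 37.4 in D10. Unc5a rose at a low level, with 0.463, 1.93, 0.794 and 1.25 CPM in M1CM against 0.251, 0.413, 0.0313 and 0.286 CPM in D10 (log2 fold change 2.17, SE 0.65, edgeR adjusted p = 0.0135). Its call was lost without rat 8 (edgeR adjusted p = 0.0746). Unc5c was at 3.13 ± 1.06 CPM in M1CM and 4.24 ± 1.95 CPM in D10 and was not called. Neo1, which encodes neogenin, fell to 82.9 ± 13.3 CPM in M1CM, against 146 ± 25.6 CPM in D10 (edgeR adjusted p = 0.000181), and Dcc had at most 0.0105 CPM on average in any medium.

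**Figure D2:**
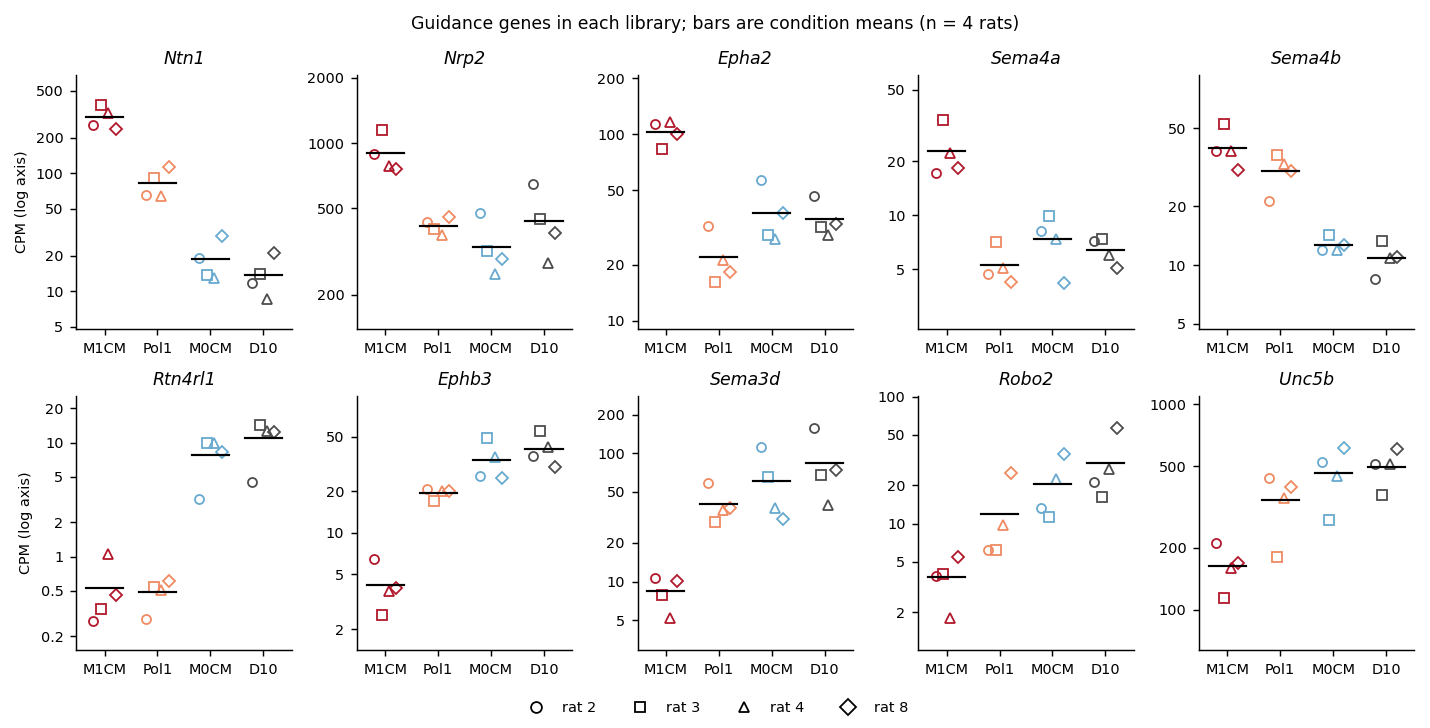
CPM on a log axis of 10 guidance genes in each of the 16 libraries, with M1CM left and D10 right; symbols mark the rat and bars the mean of a medium. The M1CM points lie above all D10 points for Ntn1, Nrp2, Epha2, Sema4a and Sema4b and below all D10 points for Rtn4rl1, Ephb3, Sema3d, Robo2 and Unc5b.

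Slit2 and Slit3 mRNA was abundant, while the roundabout receptors Robo1 and Robo2 behaved differently. Slit2, a secreted repellent, was at 189, 265, 240 and 208 CPM in M1CM and at 184, 171, 101 and 143 CPM in D10. The lowest M1CM library lay just above the highest D10 library, and Slit2 rose by a log2 fold change of 0.59 (SE 0.18, edgeR adjusted p = 0.0147), a call lost without rat 3, 4 or 8 (edgeR adjusted p = 0.0539, 0.100 and 0.0544). Slit3 was at 903 ± 330 CPM in M1CM and 668 ± 300 CPM in D10 and was not called (edgeR adjusted p = 0.369). Robo2, a slit receptor, was at 3.86, 3.98, 1.81 and 5.50 CPM in M1CM, at 6.20, 6.21, 9.84 and 24.9 CPM in Pol1 and at 21.2, 16.3, 26.8 and 56.5 CPM in D10. Its M1CM libraries were all below its Pol1 and D10 libraries, and rat 8 was the highest in each medium. Robo2 fell by 2.99 on the log2 scale against D10 (SE 0.56, edgeR adjusted p = 0.000537). Robo1 was at 17.3, 49.6, 12.8 and 14.4 CPM in M1CM and at 26.0, 29.2, 18.9 and 21.5 CPM in D10, with only rat 3 higher in M1CM (log2 fold change -0.02, edgeR adjusted p = 0.964).

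The second row named Robo1 has a listed length of 396 bases and takes its name from the KEGG annotation. In the table it lies on chromosome 11 on the strand of Robo2, 300 kb from the nearer end of Robo2 and 1377 kb from Robo1, which is on the other strand. It was at 0.0772, 0.343, 0.454 and 0.393 CPM in M1CM and at 1.92, 1.05, 1.47 and 3.78 CPM in D10, and fell by 2.68 on the log2 scale (SE 0.62, edgeR adjusted p = 0.00257). Which gene these reads belong to was not tested.

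Rtn4rl1, a Nogo receptor family protein that binds chondroitin sulfate proteoglycans, showed the deepest fall of the family. It was at 0.270, 0.343, 1.06 and 0.464 CPM in M1CM, at 0.284, 0.539, 0.512 and 0.604 CPM in Pol1, at 3.19, 10.0, 9.97 and 8.29 CPM in M0CM and at 4.52, 14.4, 12.6 and 12.4 CPM in D10. No M1CM or Pol1 library reached the lowest M0CM or D10 library, and rat 2 was the lowest in every medium. Against D10 the log2 fold change in M1CM was -4.34 (SE 0.51, edgeR adjusted p = 6.95e-06). Rtn4r, the Nogo-66 receptor, was at 0.232, 0.0857, 0.0756 and 0.393 CPM in M1CM and at 0.669, 0.676, 0.532 and 0.921 CPM in D10. The groups did not overlap, but the test missed the threshold (log2 fold change -1.79, SE 0.71, edgeR adjusted p = 0.0527). Rtn4rl2 averaged 0.196 ± 0.123 CPM in M1CM and 0.165 ± 0.156 CPM in D10 and was not called. Of the 12 partners and myelin proteins listed with the Nogo receptors, 5 could be tested, with 0 higher and 3 lower in M1CM (median log2 fold change -0.79). That is 0% and 60%, against 23.3% and 21.1% of all tested genes. Lingo1, the co-receptor, averaged 0.118 ± 0.0598 CPM in M1CM and 3.35 ± 1.52 CPM in D10 (log2 fold change -4.79, edgeR adjusted p = 1.82e-05). Rtn4, which encodes Nogo itself, averaged 301 ± 27.1 CPM in M1CM and 573 ± 81.6 CPM in D10 (log2 fold change -0.93, edgeR adjusted p = 5.63e-05), and Mog, a myelin protein, fell by 0.49 on the log2 scale (edgeR adjusted p = 0.0195).

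Of the 7 class 3 semaphorins, the secreted members of the family, 4 fell in M1CM, 1 rose and 2 were not called. Over all tested genes, 21.1% were lower and 23.3% higher. Sema3d was at 10.7, 7.92, 5.25 and 10.2 CPM in M1CM, at 58.7, 28.9, 36.2 and 37.5 CPM in Pol1 and at 156, 67.6, 39.3 and 74.4 CPM in D10. M1CM was below Pol1 and D10 in every library, and rat 2 was the highest in each medium (log2 fold change against D10 -3.31, SE 0.47, edgeR adjusted p = 5.18e-05). Sema3e, the ligand of Plxnd1, was at 10.4, 6.38, 5.14 and 7.36 CPM in M1CM and at 55.2, 32.9, 28.7 and 44.2 CPM in D10. The groups did not overlap, and Sema3e fell by 2.46 on the log2 scale (SE 0.31, edgeR adjusted p = 1.43e-05). Sema3f, which binds Nrp2, was at 61.9, 49.9, 65.6 and 54.5 CPM in M1CM and at 99.5, 126, 182 and 150 CPM in D10, again without overlap (log2 fold change -1.27, SE 0.18, edgeR adjusted p = 4.25e-05). Sema3c, the class 3 member with the highest FPKM in every medium, averaged 191 ± 19.4 CPM in M1CM and 340 ± 62.0 CPM in D10, and fell by 0.83 on the log2 scale (SE 0.17, edgeR adjusted p = 0.00115).

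Sema3g was the class 3 member that rose, and it did so in 3 of 4 rats. It was at 3.43, 0.557, 2.57 and 0.750 CPM in M1CM and at 0.669, 0.563, 0.720 and 0.381 CPM in D10, with rats 2 and 4 far above the others in M1CM (log2 fold change 1.64, SE 0.54, edgeR adjusted p = 0.0230). The call was lost without rat 2 or rat 4 (edgeR adjusted p = 0.142 and 0.106). Sema3a, which binds Nrp1, varied more between rats than between media, at 26.2, 5.44, 7.22 and 3.07 CPM in M1CM and 18.7, 3.12, 4.98 and 3.21 CPM in D10. Sema3b averaged 17.7 ± 5.67 CPM in M1CM and 19.3 ± 6.20 CPM in D10. Neither was called (edgeR adjusted p = 0.691 and 0.726).

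The 2 neuropilins, co-receptors for class 3 semaphorins and for VEGF, did not move together. Nrp2 was at 890, 1150, 785 and 761 CPM in M1CM, at 431, 403, 378 and 454 CPM in Pol1, at 477, 316, 249 and 292 CPM in M0CM and at 646, 447, 279 and 384 CPM in D10. Every M1CM library was above every library of the other media. Nrp2 rose by a log2 fold change of 1.03 over D10 (SE 0.24, edgeR adjusted p = 0.00282) and had the highest FPKM of the family in M1CM, 267 ± 53.4, against 128 ± 41.6 in D10. Nrp1 was at 78.7, 154, 72.0 and 96.3 CPM in M1CM and at 78.4, 131, 98.2 and 120 CPM in D10, with overlapping groups (log2 fold change -0.09, SE 0.23, edgeR adjusted p = 0.774). Among the 7 VEGF partners of neuropilins tested, 3 were higher and 1 lower (42.9% and 14.3%, against 23.3% and 21.1% of all tested genes). Vegfa averaged 646 ± 57.0 CPM in M1CM and 212 ± 69.9 CPM in D10 (log2 fold change 1.61, edgeR adjusted p = 2.52e-05). Flt4, the receptor of VEGF-C and VEGF-D, averaged 11.5 ± 2.08 CPM in M1CM and 4.65 ± 1.39 CPM in D10 (edgeR adjusted p = 0.00341), Vegfb rose by a log2 fold change of 0.51 (edgeR adjusted p = 0.00356), and Vegfd fell by 2.76 on the log2 scale (edgeR adjusted p = 0.0127). Furin, a protease that cuts class 3 semaphorins, averaged 705 ± 310 CPM in M1CM and 187 ± 29.5 CPM in D10 (log2 fold change 1.91, edgeR adjusted p = 3.17e-05), and Pcsk7, another such protease, fell by 0.30 (edgeR adjusted p = 0.0408). These were the called ones of the 4 proteases tested.

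Among the 12 other semaphorins tested, which are bound to the membrane, 4 rose and 4 fell in M1CM. Over all tested genes, 23.3% were higher and 21.1% lower. Sema4a was at 17.2, 33.8, 22.3 and 18.3 CPM in M1CM, at 4.70, 7.07, 5.06 and 4.23 CPM in Pol1 and at 7.19, 7.36, 6.01 and 5.08 CPM in D10. Sema4b was at 38.2, 52.3, 38.1 and 30.5 CPM in M1CM, at 21.2, 36.7, 33.0 and 30.1 CPM in Pol1 and at 8.45, 13.3, 10.9 and 11 CPM in D10. Both genes were above D10 in every M1CM library, but only Sema4b was also above D10 in every Pol1 library. The log2 fold change in M1CM was 1.84 for Sema4a (SE 0.27, edgeR adjusted p = 6.58e-05) and 1.87 for Sema4b (SE 0.19, edgeR adjusted p = 1.81e-06). Sema6b rose at a low level, with 0.617, 3.17, 4.08 and 2.46 CPM in M1CM and 0.167, 0.413, 0.720 and 0.159 CPM in D10 (log2 fold change 2.79, SE 0.65, edgeR adjusted p = 0.00280). Its M1CM library of rat 2 was within the D10 range. Sema4c averaged 23.7 ± 4.94 CPM in M1CM and 15.3 ± 2.78 CPM in D10 (log2 fold change 0.63, edgeR adjusted p = 0.00974), a call lost without rat 8 (edgeR adjusted p = 0.0868).

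The 4 that fell included Sema7a, a lipid-anchored semaphorin of immune cells and axons, which was at 4.98, 6.81, 5.63 and 4.36 CPM in M1CM, at 11.6, 4.78, 3.72 and 3.09 CPM in Pol1 and at 24.0, 24.2, 21.0 and 13.8 CPM in D10. All M1CM and Pol1 libraries were below D10 (log2 fold change in M1CM -1.93, SE 0.37, edgeR adjusted p = 0.000713). Sema6a, a ligand of class A plexins, was at 3.67, 2.61, 2.61 and 4.75 CPM in M1CM, at 10.6, 9.05, 10.4 and 18.3 CPM in Pol1 and at 11.5, 10.9, 11.1 and 17.1 CPM in D10. Here M1CM stood apart from both other media (log2 fold change against D10 -1.89, SE 0.25, edgeR adjusted p = 2.28e-05). Sema4g was at 2.70, 5.87, 6.84 and 4.75 CPM in M1CM and at 8.61, 14.9, 12.2 and 13.2 CPM in D10 without overlap (log2 fold change -1.28, SE 0.27, edgeR adjusted p = 0.00132). Sema6c averaged 2.45 ± 0.833 CPM in M1CM and 3.86 ± 0.895 CPM in D10 and lay at the threshold (edgeR adjusted p = 0.0499). It was not called without any 1 rat (edgeR adjusted p = 0.0559 to 0.264). Sema5a averaged 36.7 ± 6.76 CPM in M1CM and 33.7 ± 9.94 CPM in D10, and Sema4f averaged 3.21 ± 1.88 CPM in M1CM and 3.03 ± 1.64 CPM in D10, both without a call.

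The promoters of Sema4a and Sema4b, shown because this pair rose by nearly the same log2 value in M1CM, are given as the 250 bases before the transcription start in RefSeq (build GRCr8), with each GC box (GGGCGG on either strand) in capitals. Sema4a is at chr2:176212259-176212508 on the minus strand and Sema4b at chr1:143558547-143558796 on the plus strand, and each is written along its own gene.
Sema4a: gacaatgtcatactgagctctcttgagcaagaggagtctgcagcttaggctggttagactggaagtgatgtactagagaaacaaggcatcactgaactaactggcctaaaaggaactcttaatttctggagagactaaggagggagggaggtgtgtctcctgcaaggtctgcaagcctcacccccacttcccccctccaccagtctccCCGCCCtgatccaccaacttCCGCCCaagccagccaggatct
Sema4b: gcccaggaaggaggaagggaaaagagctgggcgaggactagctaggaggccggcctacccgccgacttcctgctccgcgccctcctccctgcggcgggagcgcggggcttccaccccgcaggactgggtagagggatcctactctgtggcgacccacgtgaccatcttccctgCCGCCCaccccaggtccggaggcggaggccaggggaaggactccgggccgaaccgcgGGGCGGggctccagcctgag
Each of the windows held 2 GC boxes. A promoter was found for 54 of the 70 symbols, and the 16 without one, among them Ntn1 and Rtn4rl1, were not searched. Of the 54 windows, 32 (59.3%) held a GC box, against 30.5% of all 33469 windows. Members gave 1 window per symbol, while the 33469 were every window listed and were not matched to the members. The letters of 3 motifs known from responses to interferon or LPS were also searched on both strands: the gamma-activated site TTCNNNGAA, the interferon-stimulated element and the NF-kB consensus. They were in 7.67%, 3.41% and 6.33% of all windows and in 1, 2 and 5 of the 54 member windows. None of the 9 windows of members higher in M1CM held any of them, and of the 15 windows of members lower in M1CM, Epha3 held the first, Sema6a the second and the third, and Efna4 the third. A match is only a run of letters, and the lack of one says nothing beyond these 250 bases.

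Plexins, the signalling receptors of semaphorins, had 1 of 8 higher and 2 lower, and 3 higher and 2 lower with a term for the rat, which added Plxnb1 and Plxnc1. Over all tested genes the shares were 23.3% higher and 21.1% lower, and 27.8% and 27.4% with that term. Plxnd1, the receptor of Sema3e, was at 112, 178, 151 and 163 CPM in M1CM, at 53.7, 68.3, 118 and 133 CPM in Pol1 and at 33.2, 34.8, 74.5 and 58.5 CPM in D10. The M1CM libraries were all above D10, and rats 2 and 3 were below rats 4 and 8 in both other media (log2 fold change against D10 1.59, SE 0.41, edgeR adjusted p = 0.00554). Plxna2, a receptor of class 6 semaphorins, was at 6.37, 8.48, 7.03 and 5.25 CPM in M1CM and at 22.6, 18.8, 12.9 and 10.5 CPM in D10 without overlap (log2 fold change -1.25, SE 0.26, edgeR adjusted p = 0.00109). Plxna3 averaged 21.0 ± 2.42 CPM in M1CM and 35.2 ± 3.12 CPM in D10 (log2 fold change -0.74, edgeR adjusted p = 0.000143). The most abundant plexin, Plxnb2, averaged 624 ± 81.4 CPM in M1CM and 713 ± 87.6 CPM in D10, and Plxna1 averaged 185 ± 32.9 CPM in M1CM and 210 ± 31.4 CPM in D10 (edgeR adjusted p = 0.313 and 0.418). Plxna4 averaged 6.59 ± 3.87 CPM in M1CM and 4.27 ± 2.11 CPM in D10 and was not called. Of 28 effectors of semaphorins and plexins tested, 6 were higher and 7 lower in M1CM (21.4% and 25%, near the shares of all genes, with a median log2 fold change of -0.26). Rnd1, a small GTPase that binds plexins, averaged 42.3 ± 11.8 CPM in M1CM and 2.69 ± 0.449 CPM in D10 (log2 fold change 3.97, edgeR adjusted p = 7.14e-07). Fes, a kinase downstream of plexins, and Mras, a Ras-family GTPase, rose by log2 fold changes of 2.65 and 2.24, while the actin oxidases Mical1 and Mical2 fell by 2.92 and 2.15 on the log2 scale and Plxdc2 by 1.98.

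Ephrins showed 1 lower call among 6 tested and no higher one, and 4 lower and 1 higher with a term for the rat. Over all tested genes the shares were 21.1% lower and 23.3% higher, and 27.4% and 27.8% with that term. Efna4 averaged 3.68 ± 0.746 CPM in M1CM and 5.87 ± 1.4 CPM in D10 (log2 fold change -0.67, SE 0.24, edgeR adjusted p = 0.0309), and was not called without rat 2, 3 or 4 (edgeR adjusted p = 0.120, 0.0881 and 0.119). The most abundant ephrin, Efnb1, averaged 78.3 ± 28.8 CPM in M1CM and 86.7 ± 37.7 CPM in D10, with rat 2 the highest in every medium.

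Among Eph receptors 1 of 10 rose and 4 fell, against 23.3% higher and 21.1% lower over all tested genes. Epha2, a receptor of ephrin-A ligands, was at 114, 83.0, 116 and 100 CPM in M1CM, at 32.0, 16.2, 21.1 and 18.3 CPM in Pol1, at 56.9, 28.8, 27.4 and 37.8 CPM in M0CM and at 46.8, 31.8, 28.7 and 32.8 CPM in D10. M1CM was above every other library, and Pol1 was below D10 in each rat. Epha2 rose by a log2 fold change of 1.56 over D10 (SE 0.25, edgeR adjusted p = 0.000162). Ephb3, a receptor of ephrin-B ligands, was at 6.44, 2.53, 3.82 and 4.00 CPM in M1CM, at 20.7, 17.1, 20.0 and 20.1 CPM in Pol1, at 25.8, 48.8, 35.4 and 25.2 CPM in M0CM and at 35.9, 55.1, 41.8 and 30.2 CPM in D10. The M1CM, Pol1 and D10 libraries formed 3 separate ranges, and Ephb3 fell by 3.28 on the log2 scale in M1CM against D10 (SE 0.29, edgeR adjusted p = 3.93e-07). Their promoters, the 250 bases before the start with GC boxes in capitals as above, are at chr5:158888379-158888628 on the plus strand for Epha2 and at chr11:93363776-93364025 on the minus strand for Ephb3 (GRCr8), and are shown as the 1 Eph receptor that rose and the one that fell with the smallest adjusted p.
Epha2: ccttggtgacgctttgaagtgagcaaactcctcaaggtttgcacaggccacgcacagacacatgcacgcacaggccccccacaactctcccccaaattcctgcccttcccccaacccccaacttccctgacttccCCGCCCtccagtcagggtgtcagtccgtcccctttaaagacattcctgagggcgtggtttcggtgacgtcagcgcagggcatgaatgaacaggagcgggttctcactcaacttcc
Ephb3: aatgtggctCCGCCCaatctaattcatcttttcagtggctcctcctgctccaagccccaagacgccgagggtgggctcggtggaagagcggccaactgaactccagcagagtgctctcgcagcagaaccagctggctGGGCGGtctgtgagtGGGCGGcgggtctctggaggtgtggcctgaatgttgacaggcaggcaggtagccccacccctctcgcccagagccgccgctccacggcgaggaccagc
The Epha2 window held 1 GC box and the Ephb3 window 3.

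The other Eph receptors that fell were at low levels. Epha4, which binds both classes of ephrin, was at 0.463, 2.06, 0.567 and 0.357 CPM in M1CM and at 4.43, 6.46, 3.10 and 3.59 CPM in D10 (log2 fold change -2.36, SE 0.57, edgeR adjusted p = 0.00357). The groups did not overlap, and rat 3 was the highest in both. Epha7 was at 1.81, 0.257, 0.265 and 0.571 CPM in M1CM and at 13.9, 3.19, 1.94 and 3.17 CPM in D10 (log2 fold change -2.92, SE 0.89, edgeR adjusted p = 0.0153), with rat 2 far above the others in D10. Epha3 was at 0.386, 0, 0.0756 and 0.143 CPM in M1CM and at 7.19, 2.33, 0.188 and 1.75 CPM in D10 (log2 fold change -4.18, SE 1.18, edgeR adjusted p = 0.0101), and here the ranges overlapped, although M1CM was lower in each rat. Epha3 was not called without rat 3 or 8 (edgeR adjusted p = 0.0569 and 0.0541), nor Epha7 without rat 3, 4 or 8 (edgeR adjusted p = 0.0532, 0.0536 and 0.0582). Epha1 averaged 1.76 ± 0.377 CPM in M1CM and 1.77 ± 0.201 CPM in D10, and Ephb6 averaged 9.91 ± 4.71 CPM in M1CM and 9.16 ± 5.65 CPM in D10, both without a call.

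Libraries of the same rat deviated together from the means of their media. With a term for the rat, 12 more members were called in M1CM against D10, 6 higher and 6 lower. This made 17 higher and 26 lower, 28.3% and 43.3% of those tested, against 27.8% and 27.4% of all genes in the same fit, so that the higher share was near the background. Ephb2 was lower in each rat, at 22.0, 24.0, 15.2 and 4.96 CPM in M1CM and 44.4, 52.0, 27.6 and 9.46 CPM in D10 (edgeR adjusted p = 0.210 without and 2.05e-07 with the rat term). Ntn4 (edgeR adjusted p = 2.98e-05), Efna5 (0.000349), Plxnc1 (0.00179), Slit3 (0.00784), Plxnb1 (0.0135) and Sema4d (0.0163) were higher in each rat. Ephb4 (9.43e-06), Rtn4r (0.00287), Efna1 (0.0124) and Efna2 (0.0371) were lower in each rat, and Efnb2 (0.0174) in 3 of 4. Plxnc1, the receptor of Sema7a, was at 12.2, 6.12, 0.907 and 1.75 CPM in M1CM and at 4.14, 1.61, 0.877 and 0.921 CPM in D10. Rats 2 and 3 carried its rise, and rat 4 was nearly level. Ephb4, a receptor of Efnb2, was at 61.1, 55.8, 28.9 and 34.4 CPM in M1CM and at 96.8, 89.5, 62.2 and 51.1 CPM in D10, and just missed the threshold without the rat term (edgeR adjusted p = 0.0501).

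**Figure D3:**
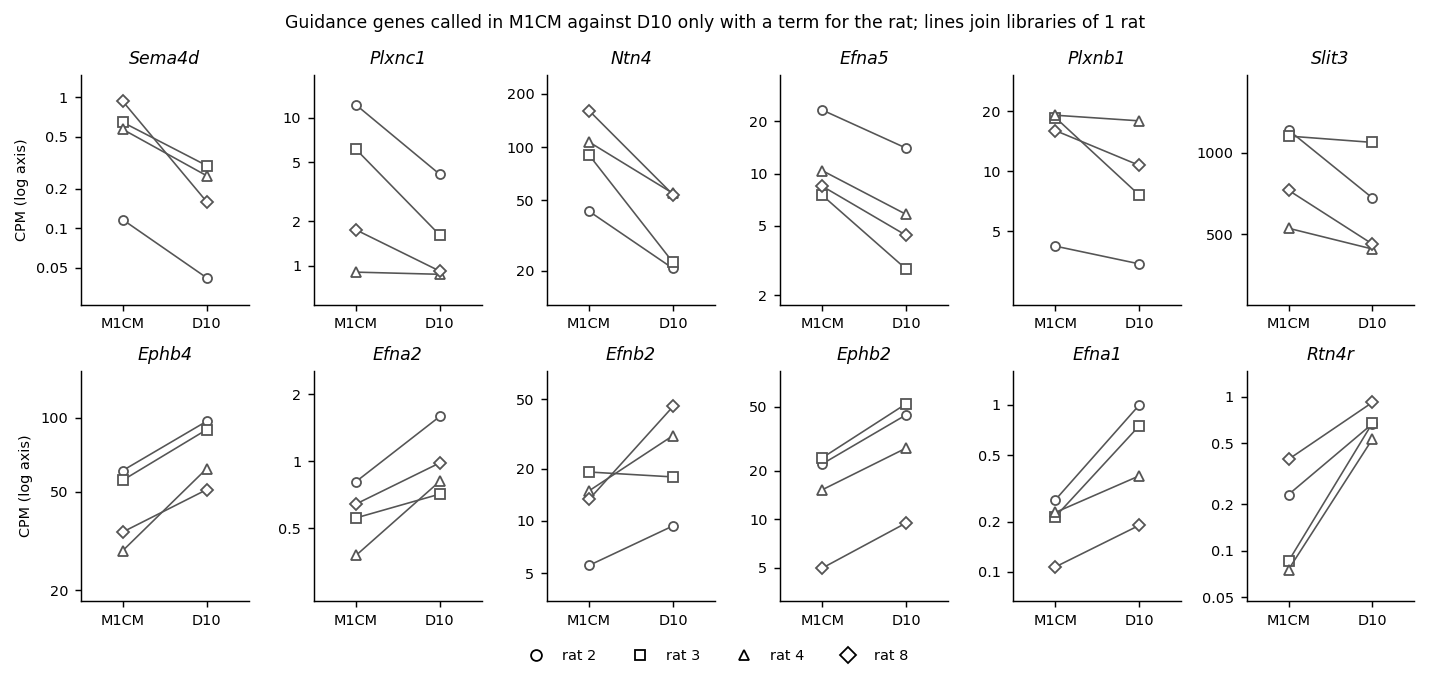
CPM on a log axis in M1CM (left) and D10 (right) of the 12 guidance genes called in this comparison only with a rat term; each line joins the 2 libraries of 1 rat. Lines slope the same way in every rat for 11 of the 12, and Efnb2 is the exception.

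Levels per length showed which roles carried the family in these cells. At least 10 FPKM was reached by 19 members in M1CM and 15 in D10, and under 0.1 FPKM were 13 members in M1CM and 14 in D10. Summed over a role, netrins were at 155 to 259 FPKM in M1CM libraries and 17.9 to 41.4 in D10, and neuropilins at 255 to 386 in M1CM and 109 to 203 in D10. The other semaphorins summed to 40.3 to 62.2 FPKM in M1CM and 32.8 to 37 in D10. Class 3 semaphorins summed to 64.2 to 80.4 FPKM in M1CM and 129 to 162 in D10, Unc5 receptors to 42.4 to 71.2 and 125 to 217, and Nogo receptors to 0.232 to 0.701 and 2.03 to 4.87. None of these ranges overlapped between M1CM and D10. The sums follow the most abundant members and do not stand for every member of a role. Mean FPKM in M1CM and D10 was 26 and 27.4 for Nrp1, 0.864 and 1.59 for Ntn3, and 0.412 and 0.0889 for Unc5a. Sema4b was at 23.1 and 6.26, in a role with 4 higher and 4 lower calls. The ranges overlapped for plexins (129 to 192 in M1CM, 133 to 178 in D10), slits (156 to 294 and 112 to 257), ephrins (46.9 to 74.7 and 46.9 to 75.3), Eph receptors (42.4 to 58.8 and 39.4 to 71.8) and roundabouts (3.92 to 11.4 and 10.2 to 21.0). The roundabout sum includes the short second row named Robo1. Its mean FPKM was 0.808 in M1CM and 5.13 in D10, against 4.73 and 4.72 for Robo1 and 0.462 and 3.68 for Robo2. The FPKM of Sema4c, Sema4d and Sema6a could not be recovered from the listed gene length.

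**Figure D4:**
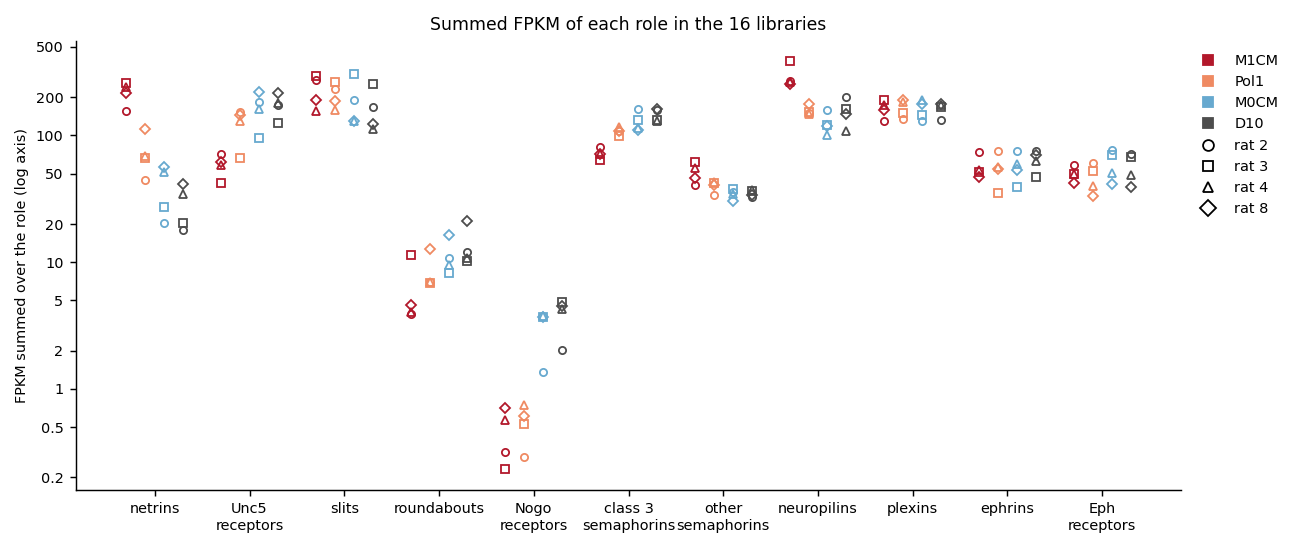
FPKM summed over the members of each role, on a log axis, in each of the 16 libraries; colours mark the medium, with M1CM left and D10 right within a role, and symbols the rat. The sums of netrins, neuropilins and other semaphorins are higher, and those of class 3 semaphorins, Unc5 and Nogo receptors lower, in every M1CM library than in every D10 library. The sums follow the most abundant members of a role.

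The 11 rows that were not tested held few counts. Over all 16 libraries, Sema5b had 84 counts, Efnb3 27, Unc5d 11, Ephb1 9, Epha8 8, Slit1 5, Epha5 4, Ntn5 4 and Robo3 1, and Robo4 and Unc5cl had 0. A change in these genes was not detectable at this depth. Epha10, with at most 0.544 CPM on average in any medium, and Unc50, at 16.6 ± 1.05 CPM in M1CM and 16.4 ± 2.09 CPM in D10, were tested and not called.

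Pol1, the polarizing medium without macrophages, moved fewer members. In Pol1 against D10, 3 members rose and 5 fell, which is 5% and 8.33% of those tested, against 10.6% and 8.09% of all genes. Over all genes these are 1431 higher and 1097 lower calls, and scaling by library totals gave 1674 higher and 753 lower, with 3 members higher and 5 lower. Ntn1 averaged 83.4 ± 23.5 CPM in Pol1 and 13.8 ± 5.38 CPM in D10 (log2 fold change 2.59, SE 0.32, edgeR adjusted p = 3.81e-05). Sema4b averaged 30.2 ± 6.58 CPM in Pol1 and 10.9 ± 1.96 CPM in D10 (log2 fold change 1.47, SE 0.19, edgeR adjusted p = 5.54e-05). Slit2 was at 260, 252, 241 and 268 CPM in Pol1, the narrowest range of the media (log2 fold change 0.77, edgeR adjusted p = 0.00760), and lost its call without rat 8 (edgeR adjusted p = 0.0620). Rtn4rl1 fell by 4.48 on the log2 scale (SE 0.51, edgeR adjusted p = 1.63e-05) and Sema7a by 1.84 (SE 0.37, edgeR adjusted p = 0.00295), although rat 2 kept 11.6 CPM of Sema7a in Pol1. Ephb3 fell by 1.07, Sema4g by 1.01 and Plxna2 by 0.80 (edgeR adjusted p = 0.0107, 0.0151 and 0.0403). The calls of Ephb3 (edgeR adjusted p = 0.0903 without rat 4), Sema4g (0.0702, 0.0963 and 0.100 without rat 3, 4 or 8) and Plxna2 (0.0623, 0.161 and 0.153 without rat 2, 3 or 4) were lost when the rats given were left out.

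With a rat term, the Pol1 calls increased to 9 higher and 19 lower, 15% and 31.7% of those tested, against 16.3% and 16.2% of all genes in that fit. The 4 class 3 semaphorins that fell in M1CM were then also lower in Pol1, with log2 fold changes of -1.06 for Sema3d, -0.74 for Sema3e, -0.49 for Sema3c and -0.37 for Sema3f (edgeR adjusted p = 0.0107, 0.000112, 0.0221 and 0.0296, and 0.107, 0.0930, 0.0570 and 0.170 without the rat term). Plxnc1, Plxnd1 and Plxna4 were higher (log2 fold change 2.16, 0.89 and 0.85, edgeR adjusted p = 5.82e-05, 0.00815 and 0.0264). Epha2 was lower in Pol1, at a log2 fold change of -0.68, and Ephb2 higher, at 0.36 (edgeR adjusted p = 0.00181 and 0.00202), each opposite in sign to M1CM against D10. The comparisons of Pol1 and M1CM with D10 share the D10 libraries.

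Set directly against Pol1, M1CM was higher in 5 members and lower in 11, which is 8.33% and 18.3% of those tested, against 13.8% and 11.3% of all genes. Base medium, M-CSF and amounts of LPS and IFNg may differ here along with macrophage products. Epha2 (log2 fold change 2.24, SE 0.26), Sema4a (2.12, SE 0.27), Ntn1 (1.85, SE 0.31) and Nrp2 (1.11, SE 0.24) were higher without overlap between the groups (edgeR adjusted p = 3.18e-05, 7.48e-05, 0.000582 and 0.00381). Sema4c was higher by 0.51 on the log2 scale and near the threshold (edgeR adjusted p = 0.0474, and 0.0502 to 0.197 without any 1 rat). Sema3d, Ephb3, Sema6a, Sema3e and Sema3f were lower without overlap, with log2 fold changes of -2.24, -2.21, -1.82, -1.71 and -0.90 (edgeR adjusted p = 0.00248, 6.23e-05, 0.000113, 0.000873 and 0.00195). Further lower calls were Epha3 (-3.70), Epha4 (-1.83), Robo2 (-1.64), Unc5b (-1.06), Efna4 (-0.67) and Plxna3 (-0.45), with edgeR adjusted p between 0.0129 and 0.0487. Each of these 6 was lost without at least 1 rat (Epha3 without rat 3 or 8, Epha4 and Unc5b without rat 2, 4 or 8, Robo2 without rat 2, 3 or 4, Plxna3 without rat 4 or 8, and Efna4 without any 1 rat). The highest adjusted p values so reached were 0.126 for Epha3, 0.168 for Epha4, 0.108 for Unc5b, 0.181 for Robo2, 0.129 for Plxna3 and 0.261 for Efna4. Rtn4rl1, Slit2, Sema7a and Sema4b did not differ by the test between M1CM and Pol1 (log2 fold change 0.14, -0.18, -0.09 and 0.39, SE 0.51, 0.18, 0.37 and 0.18). With a rat term 14 members were higher and 18 lower, 23.3% and 30% of those tested, against 19.9% and 19.5% of all genes in that fit, and Sema4b was then among the higher ones (edgeR adjusted p = 0.0189).

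Medium of unpolarized macrophages moved the family least. In M0CM against D10 the edgeR count was 0 higher and 0 lower among members, against 0.125% and 0.0148% of all genes. DESeq2 also called 0 members, against 56 genes higher and 4 lower over all genes. Before adjustment, 2 members passed 0.05 in the edgeR fit, Sema3e (log2 fold change -0.64) and Sema6b (1.43). With a rat term, which called 0.789% of all genes higher and 0.31% lower, Sema3e was the 1 member called (edgeR adjusted p = 0.00784), at 40.1, 18.8, 19.7 and 24.7 CPM in M0CM and 55.2, 32.9, 28.7 and 44.2 CPM in D10, lower in each rat. The leukocyte markers summed to at least 15.3 CPM in M0CM, as given above, and their part in these values was not tested.

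M1CM against M0CM compares the media of the 2 macrophage states, of which only M1CM was collected from cultures given LPS and IFNg. It gave 10 higher and 22 lower members, 16.7% and 36.7% of those tested, against 21.5% and 18.8% of all genes. Ntn1 (log2 fold change 4.00, SE 0.34), Sema4b (1.65, SE 0.19), Sema4a (1.63, SE 0.27), Epha2 (1.45, SE 0.25) and Nrp2 (1.43, SE 0.24) were higher, and Rtn4rl1 (-3.86, SE 0.50), Ephb3 (-3.01, SE 0.29), Sema3d (-2.85, SE 0.47) and Robo2 (-2.43, SE 0.55) lower (edgeR adjusted p between 3.31e-07 and 0.00266). The calls not seen against D10 were Efna1, Ephb4 and Sema6d. Efna1, a ligand of Epha2, was at 0.270, 0.214, 0.227 and 0.107 CPM in M1CM and at 1.12, 1.46, 0.388 and 0.367 CPM in M0CM, without overlap (log2 fold change -2.01, SE 0.69, edgeR adjusted p = 0.0300). It was not called without rat 2, 3 or 4 (edgeR adjusted p = 0.0525, 0.177 and 0.0663). Ephb4 fell by 0.83 on the log2 scale (edgeR adjusted p = 0.0319, and 0.0928, 0.0953 and 0.0581 without rat 3, 4 or 8). Sema6d was at 0.193, 0.557, 3.10 and 1.89 CPM in M1CM and at 0.279, 0.154, 0.352 and 0.694 CPM in M0CM, higher in 3 of 4 rats (edgeR adjusted p = 0.0299, and 0.0719, 0.241 and 0.0669 without rat 3, 4 or 8). Sema3g and Sema6b, higher against D10, missed the threshold here (edgeR adjusted p = 0.0577 and 0.0864), and Ntn3 fell by 1.19 (edgeR adjusted p = 0.00277). Further calls lost here with 1 rat left out were Efna4 (highest adjusted p 0.147, rats 3 and 4), Epha3 (0.103, rats 3 and 8), Epha7 (0.0665, rats 3, 4 and 8), Sema4c (0.184, rats 3, 4 and 8), Sema6c (0.0970, rats 2 and 3) and Unc5a (0.0877, rats 3 and 8). The same held for Epha4 and Plxna2 without rat 4 (0.0657 and 0.0617), Plxnd1 without rat 3 (0.103) and Slit2 without rat 8 (0.0637).

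Other guidance genes fell outside the name rule. Of the 19 tested ligands and receptors of other guidance systems, 4 were higher and 5 lower in M1CM against D10 (21.1% and 26.3%, near the shares of all genes given above, with a median log2 fold change of 0.26). L1cam, an adhesion protein of axons, averaged 10.0 ± 2.59 CPM in M1CM and 0.300 ± 0.101 CPM in D10 (log2 fold change 5.02, SE 0.35, edgeR adjusted p = 3.53e-08), and stood at 9.62 ± 3.39 CPM in Pol1. Met, the receptor of hepatocyte growth factor, and Flrt2, a ligand of Unc5 receptors, rose by log2 fold changes of 2.11 and 1.81, Flrt3 fell by 1.4, Ptch1 rose by 0.98 and Smo fell by 0.91. Among 33 tested effectors of slits, netrins and ephrins, 4 were higher and 13 lower (12.1% and 39.4%, with a median log2 fold change of -0.36). The shares over all tested genes were 23.3% and 21.1%. Chn2, a GTPase-activating protein for Rac, averaged 0.0970 ± 0.0671 CPM in M1CM and 1.45 ± 0.197 CPM in D10 (log2 fold change -3.84, edgeR adjusted p = 0.000106). The slit-roundabout effector Srgap3 fell by 2.25 and Arhgef26 by 1.53 on the log2 scale, and Vav3, Arhgef16 and Ablim3 rose by log2 fold changes of 3.01, 5.10 and 1.65 at under 4 CPM on average. Over all tested genes the median log2 fold change was -0.01 in this comparison.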

How the data were processed

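RNA was sequenced from MSCs of 4 rats in 4 media, 16 libraries. Per the labels and the study's methods, the authors aligned reads with TopHat2 2.0.12 and Bowtie2 2.2.3 and deposited HTSeq 0.6.1 counts (union mode) per gene, raw. The deposited FPKM values are those counts scaled by the authors to gene length and library size. Their own fold changes and p-values (DESeq 1.18.0 per the labels) were not used. The library kit does not mark strand, so overlapping genes cannot be told apart. The table's positions could not be matched to a build, so none of them is printed, only distances between its rows; promoter positions are those of RefSeq.

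The 13556 of 26689 rows that had 10 or more counts in 4 or more libraries were tested with edgeR 4.0.16 (R 4.3.3, TMM scaling, quasi-likelihood F-test, 1 term per medium, all 16 libraries), Benjamini-Hochberg adjusted over all of them, and called at 0.05. CPM are counts over TMM-scaled library sizes. Alternatives were other scalings and filters, DESeq2 1.42.0, the 8 libraries compared alone, a fold limit, each rat left out, and a rat term. The rats pair the libraries, each rat being 1 animal: deviations correlated at 0.33 to 0.728 within a rat over 24 pairs, and at -0.519 to 0.225 between rats over 72. Named were members called in a comparison or averaging at least 1 CPM in a medium, with library values for those called with a 2-fold or larger change, and at most 6 called genes of each other list, by fold change. The result of 1 further gene list is not reported here. The members and lists were chosen with earlier results of these data known. The fit was tested on simulated data.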

Additional observations from a re-analysis of the deposited data

Results flagged for a closer look

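In the 60 tested members, 240 groups of 4 libraries were searched for 1 library far from the other 3, and 15 were found. Chance alone marks about 1 in 20 groups. Rat 2 was the library that stood apart in 11 of the 15. Efnb1 was high in rat 2 in every medium, at 121 CPM in M1CM (others 60.5 to 68), 135 in Pol1 (40.9 to 54.7), 126 in M0CM (54.3 to 58.6) and 142 in D10 (62.5 to 76.2). Epha7 was at 13.9 CPM in rat 2 both in M0CM (others 2.20 to 3.49) and in D10 (others 1.94 to 3.19). In Pol1, rat 2 was high for Plxnc1, at 20.1 CPM (3.38 to 5.6), and for Efna2, at 1.46 CPM (0.273 to 0.462), and low for Sema6b, at 0.324 CPM (0.995 to 1.09). In D10, rat 2 was high for Sema3a, at 18.7 CPM (3.12 to 4.98), and low for Plxna3, at 30.5 CPM (36.4 to 37.2). Rat 3 was high in M1CM for Robo1, at 49.6 CPM (12.8 to 17.3), and for Epha4, at 2.06 CPM (0.357 to 0.567). Sema6a was high in rat 8, at 18.3 CPM in Pol1 (9.05 to 10.6) and at 17.1 CPM in D10 (10.9 to 11.5).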

How the results depend on the processing

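Of the member calls, 22 of 31 in M1CM against D10, 4 of 8 in Pol1 against D10 (Rtn4rl1, Ntn1, Sema4b and Sema7a), 9 of 16 in M1CM against Pol1 and 19 of 32 in M1CM against M0CM held under every alternative run other than the fold limit. No member reversed, and the median log2 fold change of all genes lay between -0.04 and 0.05 under every scaling and comparison. In Pol1 against D10 the 8 member calls became 13 with DESeq2, 28 with the rat as a replicate block and 5 to 10 with 1 rat left out. The block also gave 1 call in place of 0 in M0CM against D10 and 32 in place of 16 in M1CM against Pol1, and it ended no member call. Over all genes, a limit of 2-fold left 2939 of 6015 calls in M1CM against D10, 1124 of 2528 in Pol1 against D10 and 1368 of 3404 in M1CM against Pol1. The block gave 4395 calls in Pol1 against D10, 149 in place of 19 in M0CM against D10 (60 with DESeq2, 0 to 8 with 1 rat left out) and 5336 in M1CM against Pol1. Leaving out 1 rat gave 1364 to 2011 calls in Pol1 against D10 and 1676 to 2739 in M1CM against Pol1. The cause of these shifts was not tested. Efna1, Sema3g, Sema6d and Unc5a were not tested with a minimum of 30 counts. Members near 1 CPM carry few counts, which limits what could be called.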

Other observations

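Ratios of FPKM within a library give the balance of partners, as values with no test. Nrp2 over Nrp1 had a lowest, median and highest value of 8.61, 10.8 and 13 in M1CM, 3.73, 3.93 and 5.27 in Pol1, 3.04, 3.30 and 8.14 in M0CM and 3.26, 3.79 and 9.46 in D10, so that M1CM and D10 overlapped in 1 D10 library only. Netrin 1 over its receptor Unc5b was at 1.92, 2.70 and 5.24 in M1CM, at 0.232, 0.367 and 0.793 in Pol1, at 0.0454, 0.0663 and 0.0787 in M0CM and at 0.0260, 0.0454 and 0.0598 in D10. It was above 1 in every M1CM library and below 1 in every library of the other media. Ntn1 over Ntn4 was at 1.59, 3.88 and 6.35 in M1CM and at 0.166, 0.513 and 0.664 in D10.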
